A study of Mus musculus with 8 samples.

Results

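Interferon-stimulated genes were followed as a set of 34 genes taken by name, all of which were found among the 46517 genes of the count table. They comprised 6 sensors of foreign nucleic acid and their helpers (*Ddx58*, *Ifih1*, *Dhx58*, *Zbp1*, *Ddx60* and *Trim25*), 3 transcription factors (*Irf7*, *Irf9* and *Stat2*), 4 members of the IFIT family (*Ifit1*, *Ifit2*, *Ifit3* and *Ifit3b*), 7 genes of the OAS family with the kinase PKR (*Oas1a*, *Oas1g*, *Oas2*, *Oas3*, *Oasl1*, *Oasl2* and *Eif2ak2*), 3 genes of the ISG15 system (*Isg15*, *Usp18* and *Herc6*) and 11 other effectors (*Mx1*, *Mx2*, *Rsad2*, *Cmpk2*, *Ifitm3*, *Bst2*, *Ifi44*, *Ifi35*, *Rtp4*, *Xaf1* and *Parp14*). The rule used gene names and no measured level.

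Type I and type III interferons act through JAK kinases on a transcription factor complex that contains STAT2 and IRF9, enters the nucleus and binds short GAAA-rich elements in the promoters of its target genes. The products detect viral RNA and DNA, degrade RNA, block translation or trap virus particles at membranes, and several of them, such as *Irf7*, *Stat2*, *Irf9* and *Ddx58*, are themselves parts of the pathway and amplify it. In the liver, Kupffer cells, the resident macrophages, and sinusoidal endothelial cells line the sinusoids and meet material arriving with portal blood.

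The cells came from healthy livers of adult C57BL6/J mice of both sexes, either without a transgene or heterozygous for reporters (Pdgfrb-GFP, Pdgfra-H2bGFP, Cspg4-dsRED, Acta2-GFP or Cldn5-GFP, some combined), in which a fluorescent protein marks the cells that use the named promoter. Endothelial cells were sorted with antibodies to CD31 or VE-Cadherin or by Cldn5-GFP, macrophages with CD68, cholangiocytes with EPCAM, mesenchymal cells by reporter or an antibody to PDGFRα, and hepatocytes as living cells without selection, so the numbers of cells reflect the sorting. No animal was treated, and no group received interferon or a virus. The 3491 cells, sequenced one by one with Smart-seq2 on 22 plates of a single sex each, formed 8 pools, a female and a male pool of each of 4 classes: endothelial (451 and 655 cells), immune (396 and 255), mesenchymal (339 and 998) and parenchymal (39 and 358). The labels do not name the mice of a pool, and sex cannot be told apart from mice, plates and depth. In comparisons of classes and populations, p-values therefore measure the spread between these pools. In comparisons of clusters or of plates they measure the spread between sums, several of which share a pool.

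Cells held 47063 to 1128421 counts, and the pool medians ran from 88932 in the female parenchymal pool to 321121 in the female mesenchymal pool, which was 1 plate. Cell classes and clusters were the authors' deposited annotation. The 5 Kupffer markers (*Clec4f*, *Folr2*, *Vsig4*, *Timd4* and *Cd5l*) summed to 14810 and 15300 CPM (a gene's count scaled by the total count of the sum) in the female and male cells of the Kupffer clusters, against 167 and 68.2 CPM in endothelial cells. The 6 endothelial markers (*Pecam1*, *Cdh5*, *Tie1*, *Kdr*, *Ptprb* and *Stab2*) summed to 9142 and 10030 CPM in endothelial cells against 1002 and 754 CPM in Kupffer cells. The study found *Cdh5* in Kupffer cells about as high as in endothelial cells, so the Kupffer sum is not a measure of endothelial RNA alone. The authors had drawn the clusters from these very transcriptomes, and differences between clusters are descriptions of the annotation as well as of the genes. In sums over cells, fewer expressing cells and less RNA per cell cannot be told apart, and the share of cells with a read is given where it matters.

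The promoters of the members were examined first, since the set is defined by a shared response. RefSeq promoter entries (GRCm38.p6, 250 bases before to 50 bases after the start) were found for 26 of the 34 members, and 15 of these 26 (57.7%) contained the letters GAAANNGAAA on either strand (TTTCNNTTTC when read in reverse), the core spacing of the interferon-stimulated response element. The same letters were found in 3.99% of the 27025 genes with an entry. No entry was found for *Parp14*, *Oas2*, *Zbp1*, *Usp18*, *Rtp4*, *Mx2*, *Mx1* and *Dhx58*. The matches are descriptions of the letters and not of binding.

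5 promoters are shown because their genes stood for different patterns of expression in the results, with the matched letters in capitals. *Isg15* (minus strand, chr4:156200769-156201068) encodes a ubiquitin-like modifier and held 3 overlapping matches at -78, -72 and -66 from the start. *Oas3* (minus strand, chr5:120777610-120777909), which encodes an oligoadenylate synthetase, held 1 match at -75. *Ifit3* (plus strand, chr19:34583279-34583578) and *Ifit3b* (plus strand, chr19:34607707-34608006), near-identical copies of the IFIT family, each held 2 matches on the reverse strand, at -156 and -122 and at -188 and -154. *Irf7* (minus strand, chr7:141266375-141266674), the transcription factor that drives interferon genes, held none in this window.
Isg15: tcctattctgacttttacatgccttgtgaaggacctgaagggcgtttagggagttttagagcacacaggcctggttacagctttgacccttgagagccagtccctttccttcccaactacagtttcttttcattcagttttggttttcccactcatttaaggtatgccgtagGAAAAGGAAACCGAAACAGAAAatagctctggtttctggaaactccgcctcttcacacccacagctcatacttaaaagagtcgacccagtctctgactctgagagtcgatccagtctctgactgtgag
Oas3: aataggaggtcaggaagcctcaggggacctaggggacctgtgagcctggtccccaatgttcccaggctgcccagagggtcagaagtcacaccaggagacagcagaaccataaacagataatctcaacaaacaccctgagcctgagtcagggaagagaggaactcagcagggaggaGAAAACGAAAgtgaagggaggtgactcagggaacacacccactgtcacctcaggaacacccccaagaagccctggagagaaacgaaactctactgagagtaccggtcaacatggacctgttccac
Ifit3: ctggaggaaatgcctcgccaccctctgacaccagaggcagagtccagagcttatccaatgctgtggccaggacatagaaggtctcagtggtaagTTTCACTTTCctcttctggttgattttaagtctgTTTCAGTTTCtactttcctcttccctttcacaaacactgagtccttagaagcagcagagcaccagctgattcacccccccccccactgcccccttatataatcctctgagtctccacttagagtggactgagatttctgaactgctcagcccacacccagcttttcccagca
Ifit3b: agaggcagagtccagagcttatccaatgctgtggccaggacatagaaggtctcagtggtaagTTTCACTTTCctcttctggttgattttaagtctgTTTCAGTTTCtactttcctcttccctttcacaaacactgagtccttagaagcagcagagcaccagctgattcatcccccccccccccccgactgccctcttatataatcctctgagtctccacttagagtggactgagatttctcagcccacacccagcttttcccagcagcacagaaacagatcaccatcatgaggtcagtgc
Irf7: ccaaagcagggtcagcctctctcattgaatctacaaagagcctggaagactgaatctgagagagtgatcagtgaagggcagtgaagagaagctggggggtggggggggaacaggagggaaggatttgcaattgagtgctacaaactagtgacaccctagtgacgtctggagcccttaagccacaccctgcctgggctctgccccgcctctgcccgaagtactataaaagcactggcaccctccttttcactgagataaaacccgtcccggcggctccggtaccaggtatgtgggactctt

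Expression of the whole set was summarised per cell as a score, the mean over the 34 members of the natural log of 1 plus the counts per 10000. Kupffer cells had the highest mean score of the 7 populations in both pools, 0.682 ± 0.220 (SD over 394 cells) in the female pool and 0.427 ± 0.187 (SD over 134 cells) in the male pool. Myeloid cells (63 male cells) followed with 0.391 ± 0.274, but 9 of the 65 myeloid cells of both pools belonged to the finer cluster i4c, whose male cells carried 12470 CPM of Kupffer markers, and without those 9 the mean was 0.330 over 56 cells. Endothelial cells had 0.317 ± 0.174 (451 female cells) and 0.311 ± 0.173 (655 male cells). Cholangiocytes had 0.249 in the female and 0.201 in the male pool, mesenchymal cells 0.203 and 0.190, B cells 0.147 and hepatocytes 0.119, the last 2 in male cells alone.

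Plates showed how far this order held. The female Kupffer plates had mean scores of 0.688 and 0.689, and the 4 male Kupffer plates ran from 0.356 to 0.511 with a median of 0.437. The 4 female endothelial plates ran from 0.290 to 0.391 and the 11 male ones from 0.187 to 0.347. The Kupffer and endothelial ranges therefore met only between 0.356 and 0.391, whereas the 3 myeloid plates (0.221 to 0.468) overlapped both. Male cholangiocyte plates (0.12 to 0.218), male mesenchymal plates (0.123 to 0.242), B cell plates (0.0880 to 0.170) and hepatocyte plates (0.0641 to 0.168) overlapped with their neighbours in the order.

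**Figure D1:**
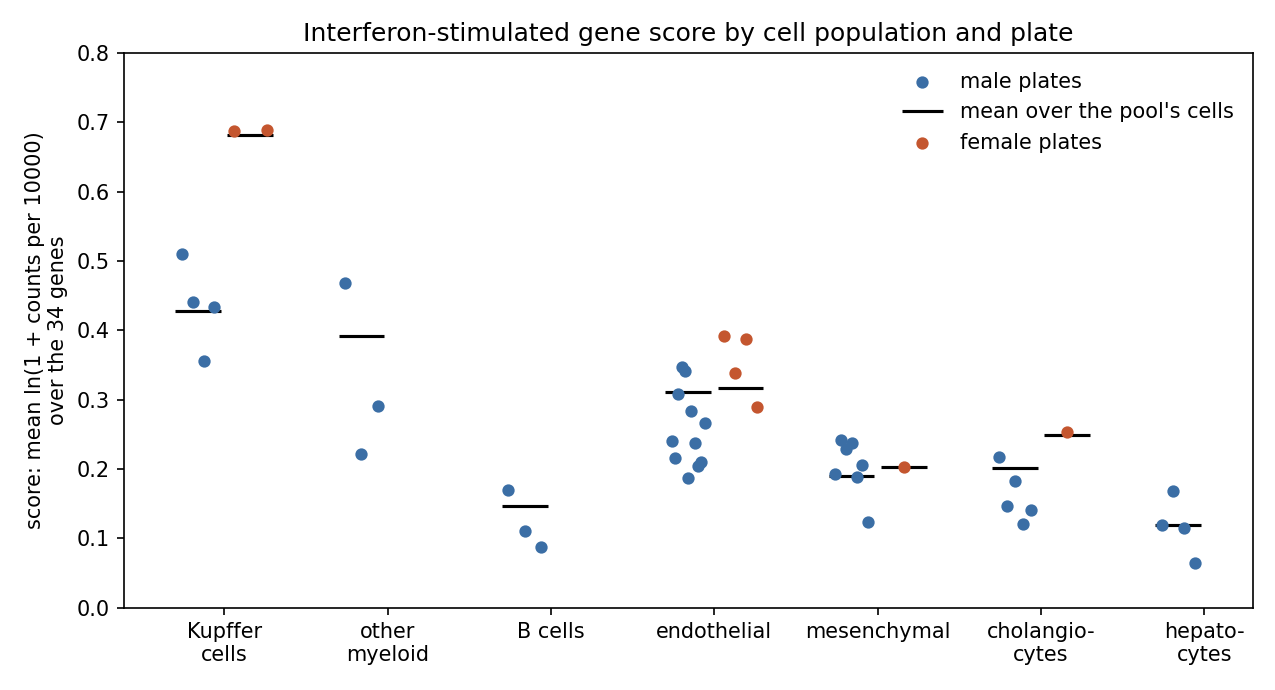
Mean score of the 34 interferon-stimulated genes (mean natural log of 1 plus counts per 10000) of each plate, by population, with male plates in blue, female plates in orange and a black line at the mean over the cells of a pool. The 2 female Kupffer plates, at 0.688 and 0.689, stand above the 4 male Kupffer plates (0.356 to 0.511) and above the endothelial plates (0.187 to 0.391).

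On 6 plates at least 5 Kupffer cells and at least 5 endothelial cells had been processed side by side, and the Kupffer cells had the higher mean score on each of them. The female plates gave 0.688 against 0.391 (297 and 5 cells) and 0.689 against 0.387 (91 and 54 cells). The male plates gave 0.511 against 0.342, 0.441 against 0.284, 0.356 against 0.237 and 0.433 against 0.204. The differences ran from 0.119 to 0.302, and from 0.119 to 0.305 once every cell had been thinned to 50000 counts. Within these plates the order of the 2 populations did not depend on the plate.

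Female and male Kupffer cells differed in score by more than their plates varied, but also in detected genes per cell. The median Kupffer cell had 5412 detected genes in the female pool and 3270 in the male pool (3629.5 and 1830 after thinning), and 25 against 12.5 of the 34 members detected. Thinning left the scores at 0.675 and 0.424. The part of gene detection in the score difference was not tested, and sex, mice and plates cannot be told apart here. By CPM, 26 of 34 members were higher in the female and 8 in the male Kupffer pool, where 64.2% of 23789 genes with a read in either were higher and 35.8% lower in the female pool. In endothelial cells 17 members were higher in each pool, where 44.1% of genes were higher and 55.9% lower in the female pool.

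**Figure D2:**
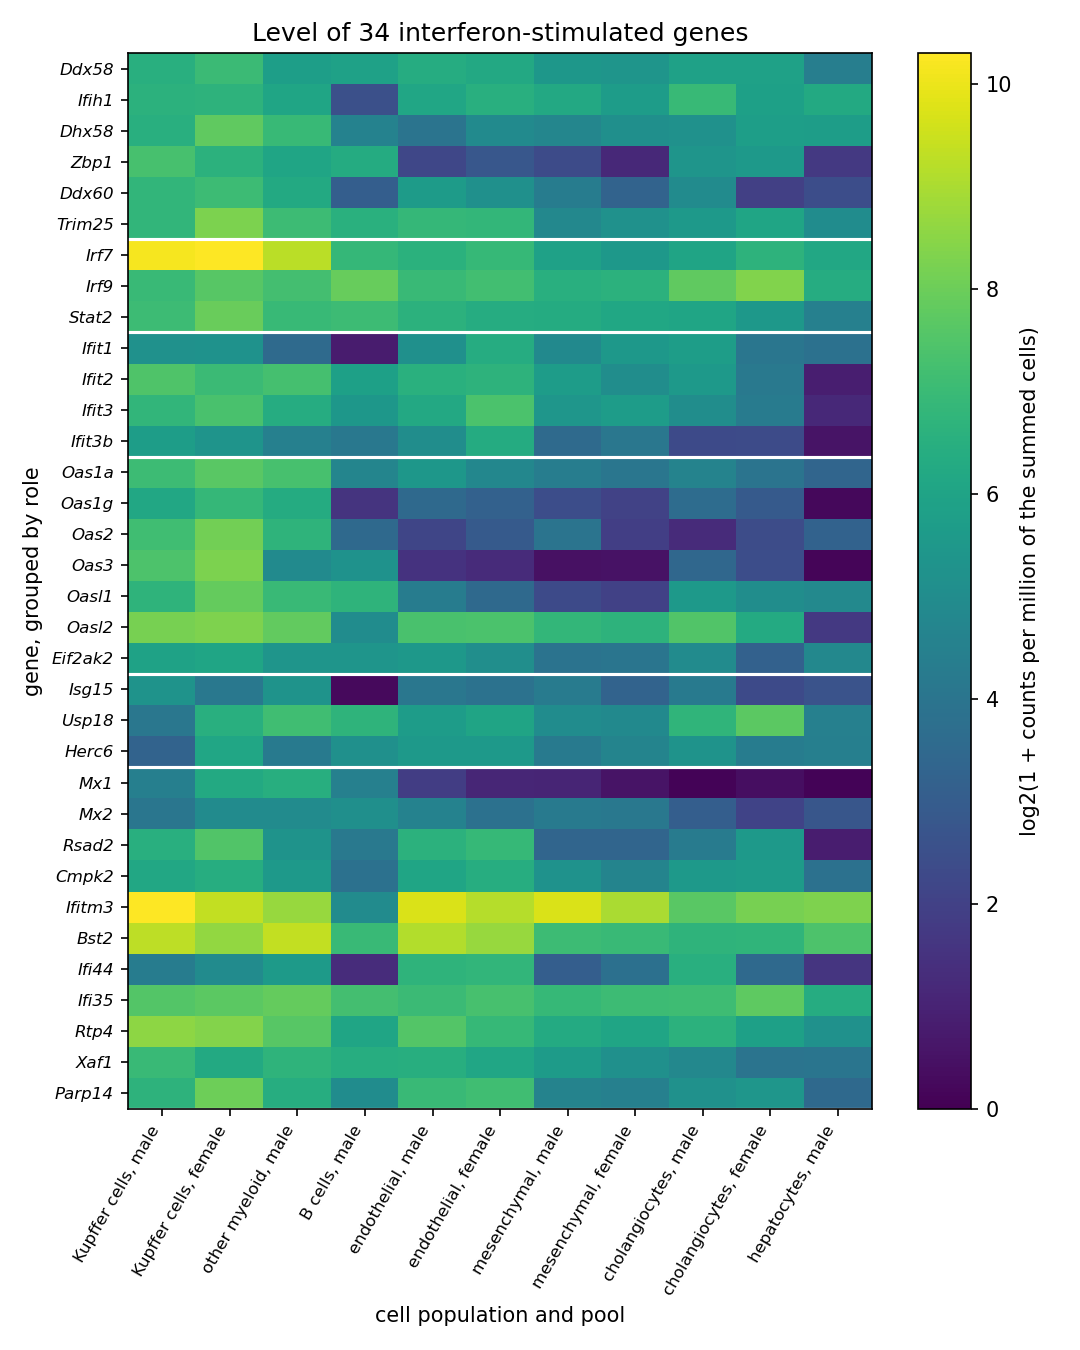
Heat map of log2(1 + CPM) for the 34 members, ordered by role, in each population and pool of at least 5 cells. *Oas3*, *Oas2*, *Zbp1* and *Irf7* are high in the Kupffer columns, though not there alone. *Irf7* reached 604 CPM in male myeloid cells, and *Zbp1* 80 CPM in male B cells and 66.4 CPM in male myeloid cells. *Ifitm3* and *Bst2* are high in most columns.

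Immune cells, compared with the mean of the other 3 classes over 8 pool sums, had higher levels of 18 of the 34 members and lower levels of none, where 7.92% of the 24046 tested genes were higher and 5.25% lower. A gene was called at an adjusted p (edgeR quasi-likelihood test, Benjamini-Hochberg over all genes tested) under 0.05 if its log2 fold change reached 1 in either direction. The members' median log2 fold change was 1.53, against 0.09 over all genes. By role, 6 of 7 genes of the OAS family and PKR, 4 of 6 sensors, 2 of 3 transcription factors, 1 of 4 IFIT genes, 5 of 11 other effectors and 0 of 3 genes of the ISG15 system were called.

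The OAS family, whose enzymes make the 2′-5′ oligoadenylates that switch on RNase L, contained the largest fold change of the set. *Oas3* stood at 311 CPM in the female and 95.3 CPM in the male immune pool, a log2 fold change of 7.19 ± 0.49 (SE, adjusted p = 0.000214). *Oas2* stood at 272 and 100 CPM (5.12 ± 0.65, adjusted p = 0.00191). Each was higher in both immune pools than in any of the other 6. *Oasl1* (3.93), *Oas1g* (3.91), *Oas1a* (3.0) and *Oasl2* (1.28) were called as well, with *Oas1a* and *Oas1g* uncertain as separate genes because they are near-identical neighbours whose reads can be split between them.

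Among the transcription factors, *Irf7*, the amplifier of the interferon response, stood at 1265 and 751 CPM in the immune pools (log2 fold change 3.82 ± 0.32, adjusted p = 0.000365), and *Stat2*, a subunit of the complex that receives the signal, was higher by 1.58 ± 0.34 (adjusted p = 0.0202). The called sensors were *Zbp1*, which binds Z-form nucleic acid (3.85 ± 0.51), *Ddx60* (2.55), *Dhx58*, a regulator of the RNA helicase sensors also called LGP2 (2.40), and *Trim25*, a ubiquitin ligase acting on RIG-I (2.01). *Mx1*, a dynamin-like GTPase that is defective in C57BL/6 mice, was higher by 6.74 ± 0.69 (76.2 and 43.0 CPM in the immune pools). *Rsad2* (viperin, 2.09), *Parp14* (1.96), *Rtp4* (1.82), *Ifit2* (1.69) and *Bst2* (tetherin, 1.34) completed the called members.

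Not every member was higher in immune cells. *Ifit3b* (1.56, adjusted p = 0.0683), *Eif2ak2* (1.51, 0.104), *Ifit3* (1.48, 0.0506), *Mx2* (1.35, 0.141) and *Xaf1* (1.33, 0.0598) had the largest log2 fold changes that did not pass, each followed here by its adjusted p. The estimates of *Ifit1* and *Ifi44* lay at -0.30 and -0.16. The female immune pool was almost wholly Kupffer cells (394 of 396), the male pool 134 of 255. Fewer members passed when the female immune, the female endothelial or the female mesenchymal pool was left out. Each of these fits rests on 1 sum in that class. The share of all genes called there was not set beside the members, so the fall is not read as particular to them.

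Kupffer cells were then compared with endothelial cells, the other population lining the sinusoid. 9 of 34 members were higher in Kupffer cells and none lower, where 3.47% of the 26012 tested genes were higher and 3.71% lower. An unadjusted p under 0.05 was found for 12 members, a description without the share of all genes at that threshold. The members' median log2 fold change was 0.86, against -0.01 over all genes. 5 of the 9 belonged to the OAS family, 2 were sensors, 1 was a transcription factor and 1 an effector, and none of the IFIT family or the ISG15 system was called.

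*Irf7* (chr7:141262706-141266481, minus strand, GRCm38) was the clearest of them by level and detection. It stood at 1266 and 1163 CPM in female and male Kupffer cells and at 117 and 95.9 CPM in endothelial cells, a log2 fold change of 3.78 ± 0.44 (SE, adjusted p = 0.00229, edgeR quasi-likelihood test). Reads of *Irf7* were found in 99.5% (exact 95% binomial interval 98.2 to 99.9) of female and 91.0% (84.9 to 95.3) of male Kupffer cells, against 52.1% and 42.9% of endothelial cells. The intervals treat the cells as independent and do not cover differences between plates or mice. On male Kupffer plates the share ran from 71.4% (7 cells) to 97.9% (47 cells). The counts are of reads, which carried no molecular identifiers. Over plates, *Irf7* ran from 725 to 1656 CPM (median 1096) on 6 Kupffer plates and from 0 to 320.5 CPM (median 77.9) on 15 endothelial plates, with no overlap.

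*Oas3* had the largest fold change of the called members. It stood at 310 and 170 CPM in Kupffer cells and at 1.38 and 1.88 CPM in endothelial cells (log2 fold change 7.45 ± 0.75, adjusted p = 0.00145), and its plates ran from 69.1 to 360 CPM against 0 to 7.2 CPM. Reads were found in 84.0% (80.0 to 87.5) of female but only 33.6% (25.7 to 42.3) of male Kupffer cells, and in 13.8% and 12.5% of endothelial cells. *Zbp1* stood at 96.5 and 156 CPM against 5.95 and 3.55 CPM (5.02 ± 0.83, adjusted p = 0.00784), with plates from 84.4 to 203 CPM against 0 to 6.52 CPM. *Irf7*, *Oas3* and *Zbp1* were the 3 members whose Kupffer plates all lay above all endothelial plates, a separation seen for 1.56% of the 26012 genes.

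**Figure D3:**
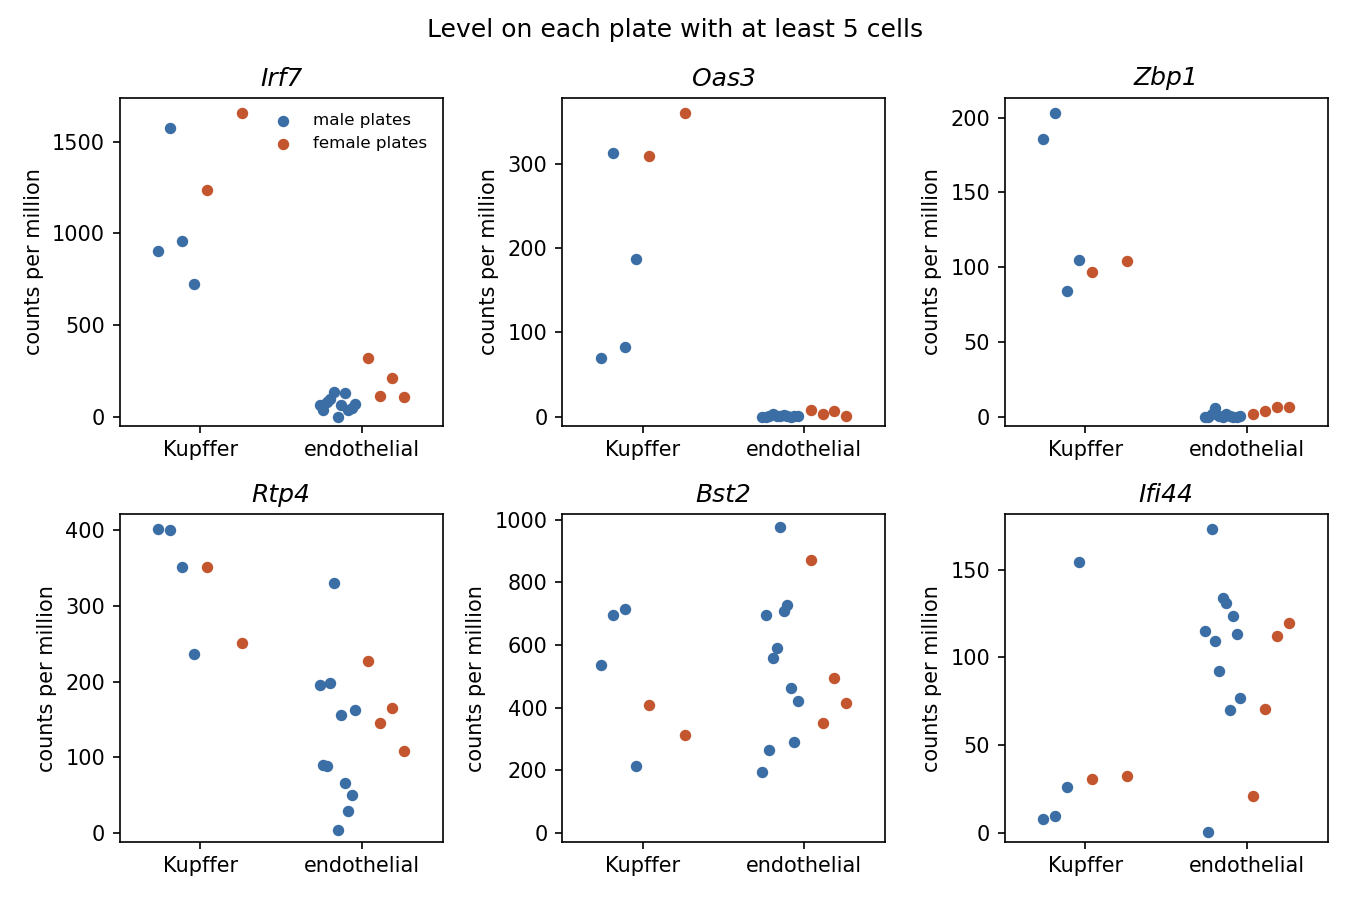
CPM of *Irf7*, *Oas3*, *Zbp1*, *Rtp4*, *Bst2* and *Ifi44* on each plate with at least 5 Kupffer or endothelial cells, 1 point per plate, male plates in blue and female plates in orange. The Kupffer points of *Irf7* (725 to 1656), *Oas3* (69.1 to 360) and *Zbp1* (84.4 to 203) lie above every endothelial point, while those of *Bst2* (212 to 716) lie within the endothelial range (194 to 979).

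The other called members were less even between plates. *Oas2* (5.60 ± 1.05), *Mx1* (4.90 ± 1.09), *Oasl1* (3.76 ± 0.63), *Oas1g* (3.57 ± 0.70), *Dhx58* (3.03 ± 0.63) and *Oas1a* (2.53 ± 0.55) had adjusted p-values from 0.00835 to 0.0273. *Oas2* ran from 0.0821 to 461 CPM on Kupffer plates and from 0 to 48.5 CPM on endothelial plates, so that its lowest Kupffer plate fell within the endothelial range. *Oasl1* ran from 1.73 to 240 CPM against 0 to 290 CPM. The Kupffer median over plates was the higher for 28 of the 34 members, and for 36.1% of the 26012 genes, of which 36.6% had the lower Kupffer median and the others equal medians.

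Members that did not pass included *Ifitm3* and *Bst2*, the most abundant members of both populations per kilobase of exon. *Bst2*, which tethers budding virus particles to the membrane, stood at 399 and 620 CPM in Kupffer cells and at 414 and 560 CPM in endothelial cells (log2 fold change 0.37 ± 0.41, adjusted p = 0.711). *Ifitm3*, which hinders virus entry at endosomes, stood at 664 and 1246 CPM against 567 and 847 CPM (0.75 ± 0.48, adjusted p = 0.45). Of the uncalled members with the largest estimates, *Ifi44* was the single one below 0, at 30.6 and 18.8 CPM in Kupffer and 110 and 104 CPM in endothelial cells (-1.86 ± 0.89, adjusted p = 0.292), beside *Ddx60* (1.81, 0.336), *Rtp4* (1.5, 0.101), *Stat2* (1.32, 0.162) and *Isg15* (1.19, 0.564), each with its adjusted p.

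**Figure D4:**
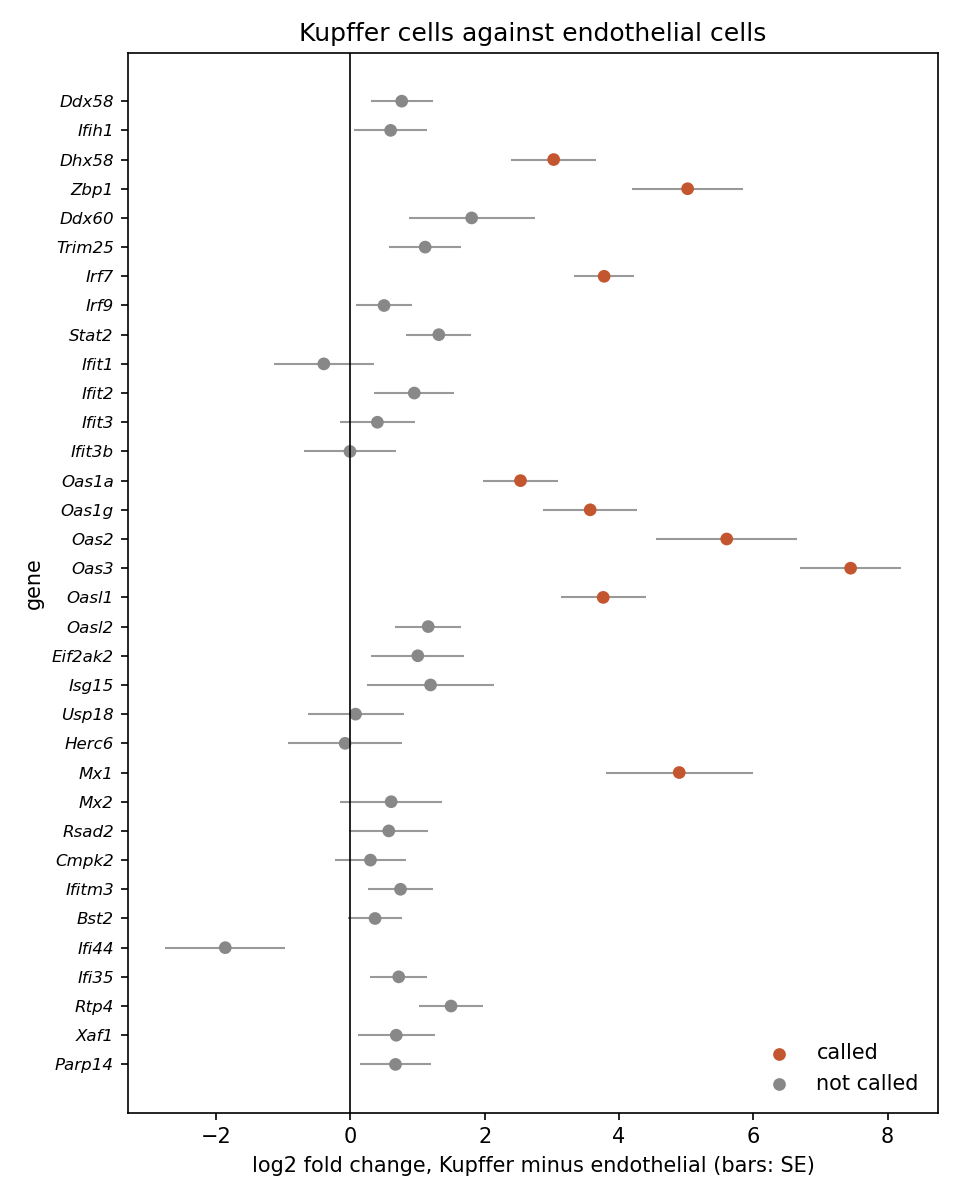
Log2 fold change with SE of each of the 34 members in Kupffer cells against endothelial cells, with called members in orange and the others in grey. The 9 called members lie between 2.53 (*Oas1a*) and 7.45 (*Oas3*), and *Ifi44* lies lowest at -1.86.

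The comparison was repeated within the 6 plates that held both populations, with the plate as a term in the fit, a choice made after seeing the data. 8 members were higher and none lower, where 5.09% of the 16016 tested genes were higher and 4.6% lower: *Zbp1* (7.56), *Oas2* (7.43), *Oas3* (7.17), *Mx1* (5.40), *Irf7* (3.51), *Oasl1* (3.44), *Ifit2* (2.66) and *Oas1a* (2.19), given as log2 fold changes. *Dhx58* (3.25, adjusted p = 0.0823) and *Oas1g* (3.32, adjusted p = 0.164) did not pass there. Fewer members were called when single pools were left out, and fewest when either endothelial pool was. A population that loses a pool has no replicate in such a fit. The share of all genes called there was not set beside the members, so the fall is not read as particular to them. *Irf7* and *Oas3* were called under each of the 11 alternatives run for this comparison.

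Levels of different genes were compared per kilobase of exon, over both pools of a population. In Kupffer cells *Ifitm3* (1158 CPM per kb), *Bst2* (493), *Irf7* (330) and *Rtp4* (161) led, and *Ifi44* was low at 4.59. In endothelial cells *Ifitm3* (1088) and *Bst2* (557) led too, while *Irf7* stood at 27.6 and *Oas3* was lowest at 0.239, also in each pool. Between them the order differed between the pools, with *Ifit3* at 96.3 in female and 42.4 in male endothelial cells and *Rtp4* at 56.0 and 87.2. *Ifitm3* also led in mesenchymal cells (1073), hepatocytes (471) and cholangiocytes (311), whereas *Bst2* (710) stood above *Ifitm3* (615) in myeloid cells.

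Endothelial cells, compared with the mean of the other 3 classes, had 3 members higher and 1 lower, where 5.33% of all tested genes were higher and 2.96% lower. *Ifi44* (log2 fold change 2.25 ± 0.57, adjusted p = 0.0489), *Ifit3b* (2.17 ± 0.47, adjusted p = 0.0271) and *Bst2* (1.26 ± 0.30, adjusted p = 0.038) were higher, and *Oas3* was lower (-2.28 ± 0.58, adjusted p = 0.0496). *Ifit3b* cannot be separated with certainty from its copy *Ifit3*, which did not pass (1.27, adjusted p = 0.108). *Zbp1* (-2.26), *Oas2* (-2.02), *Rsad2* (1.71) and *Dhx58* (-1.51) did not pass either. DESeq2 called 3 members higher and 4 lower (8.53% and 10.8% of genes), and edgeR without a filter on low counts 4 higher and 3 lower (6.74% and 5.42%). With the pool as a block, where the block is the sex of the pool, 2 members were called. Leaving out single pools gave 0 to 3 called members, with none left when either endothelial or either mesenchymal pool was missing and 1 when either immune pool was.

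Within the endothelium, the 8 clusters of the authors had mean scores from 0.188 to 0.482. Cluster e7, whose 150 cells the authors annotated as central vein, had the lowest score in both pools (0.199 female, 0.188 male), and its cells had few detected genes (medians of 1437 and 1662 after thinning). Cluster e3, a sinusoidal cluster, had the highest in both (0.482 and 0.358), but its female sum held 6 cells, 1 of which scored 1.461. The other central vein cluster e1 (0.312 and 0.286), the portal vein cluster e2 (0.358 and 0.295), in which 14 of 128 cells carried another annotation (PBV), and cluster e8 (0.373 and 0.308) lay between them.

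Sinusoidal clusters were compared with the other endothelial clusters in 2 groupings, which gave different results. The sums of all endothelial clusters came from the same 2 pools and were entered as separate samples. They are not independent replicates, and the p-values here measure the spread between cluster sums. With e7 counted among the other clusters, as the authors annotated it, 1 member was called higher by edgeR, *Dhx58* (log2 fold change 2.90 ± 0.75, adjusted p = 0.0485), where 1.39% of 18321 tested genes were higher and 1.33% lower. With e7 counted as sinusoidal, the grouping chosen at first, no member was called by edgeR, where 0.759% of genes were higher and 1.16% lower. In that grouping 1 member had an unadjusted p under 0.05, and DESeq2 called 1, *Parp14*, an ADP-ribosyltransferase (edgeR log2 fold change 1.43 ± 0.44, adjusted p = 0.124). *Rsad2* differed widely between cluster sums, from 9.48 and 26.3 CPM in e1 to 1109 CPM in the 6 female cells and 120 CPM in the 230 male cells of e3, and its sinusoidal estimate of 1.58 ± 0.80 did not pass (adjusted p = 0.426). No member was called for the portal vein cluster e2 (1.85% of genes higher, 0.0819% lower, 1 member with an unadjusted p under 0.05) or the central vein cluster e1 (1.32% and 0.0873%, 0 members), and DESeq2 called none in either. Whether the sinusoidal difference, with e7 counted as sinusoidal, differed between the sexes could not be decided. Each sex had 1 endothelial pool. An interaction fit could only use clusters of that pool in place of replicates, so its results are not given.

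Immune cells were divided more finely by the authors' community clusters. The Kupffer clusters of the female pool reached scores of 0.764, 0.728 and 0.700 in i10c, i8c and i11c. B cells (i6c, male) had 0.148, and i7c (16 male cells), whose cells expressed the plasmacytoid dendritic cell markers *Siglech* and *Ccr9*, had 0.259. In i7c *Bst2*, which is also a known marker of those cells, stood at 1330 CPM and *Irf7* at 435 CPM, but *Ifitm3* at only 21.5 CPM. Cluster i9c, with 20 female and 6 male cells, expressed Kupffer markers (9207 and 4434 CPM) together with endothelial markers (4499 and 3476 CPM), and 9 members were still called between Kupffer and endothelial cells without it and the multilevel cluster i4.

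**Figure D5:**
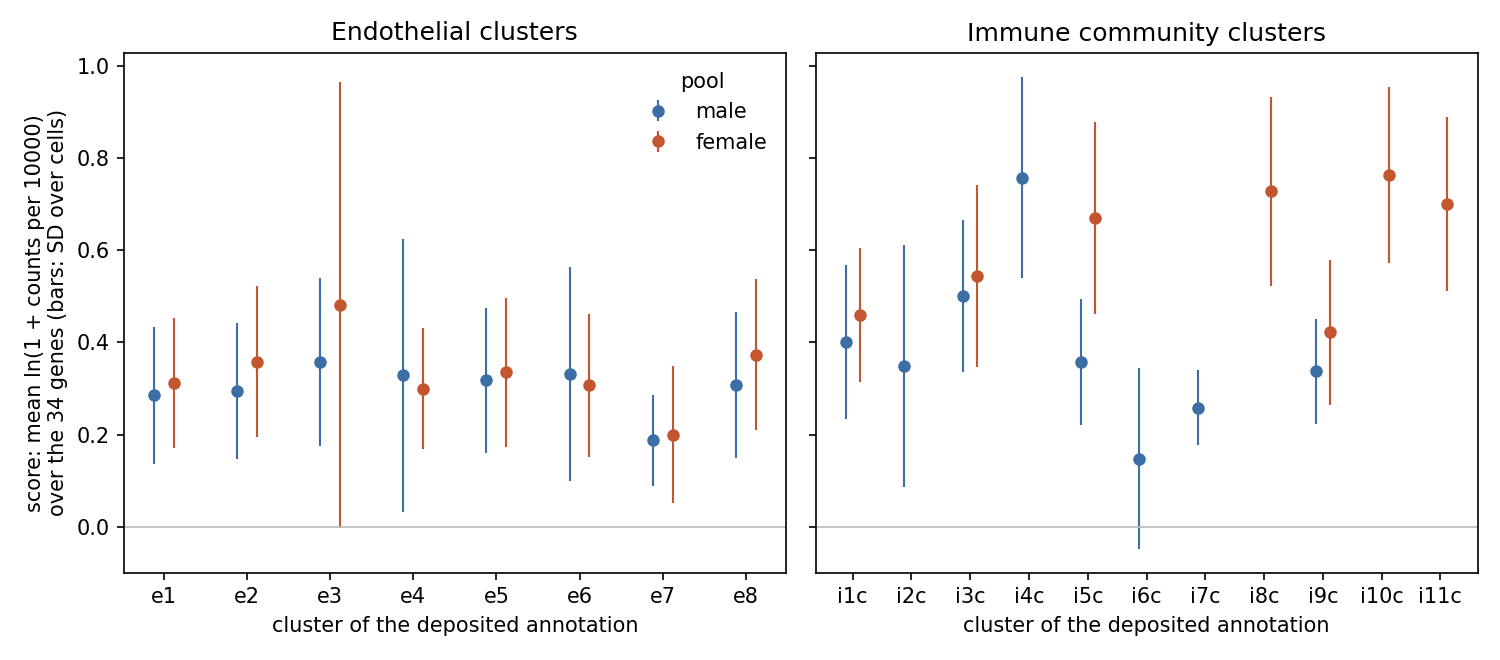
Mean score with SD over cells for each cluster and pool of at least 5 cells, endothelial multilevel clusters on the left and immune community clusters on the right, male pools in blue and female pools in orange. Endothelial means lie between 0.188 and 0.482, and the immune means run from 0.148 in B cells (i6c) to 0.764 in i10c.

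1 male cluster stood apart from the other male immune cells. Cluster i4c (17 male cells and 1 female cell, 16 of them on 1 plate) had a mean score of 0.758 in the male pool, where the other male clusters of at least 5 cells lay between 0.148 and 0.5. On the shared plate its 16 cells scored 0.731 against 0.450 for 15 cells of the Kupffer cluster i1c, and 26 of the 34 members (76.5%) had the higher CPM in i4c, as did 60.1% of 16857 genes with a read in either. The cluster was singled out for its high score, so the members' count is a description. *Ddx60* stood at 296 against 79.4 CPM, *Mx1* at 150 against 3.20 CPM, *Rtp4* at 482 against 143.5 CPM and *Stat2* at 144 against 27.9 CPM. The study used *Ddx60* as a marker of i4c, so its level there is part of how the cluster was described. The order was not shared by all members, as *Ifih1* (89.2 against 309 CPM), *Oas3* (33.2 against 126 CPM) and *Bst2* (463 against 855 CPM) were lower.

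The cells of i4c carried the Kupffer marker *Clec4f* (3858 against 5241 CPM in i1c) but also more stress genes, with *Fos* at 1253 against 162 CPM and a median summed stress level per cell of 3232 against 255.7 CPM. They had 5272 detected genes per cell against 3275 (3147.5 against 2082 after thinning), and 9 of the 18 cells were counted among the myeloid population by the coarser clustering. The part of stress and gene detection in the difference was not tested, and with nearly all cells on 1 plate no test was made.

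Mesenchymal cells had 6 members lower and none higher than the mean of the other classes, where 2.33% of genes were lower and 9.47% higher. They were *Oas3* (log2 fold change -4.92 ± 0.69), *Oasl1* (-3.64 ± 0.58), *Zbp1* (-3.17 ± 0.69), *Rsad2* (-2.88 ± 0.70), *Oas1g* (-2.17 ± 0.55) and *Irf7* (-1.94 ± 0.40), with adjusted p-values from 0.00311 to 0.0386. The immune pools are part of the mean they were compared with, so these values share samples with the immune comparison. *Oas3* stood at 0.404 and 0.371 CPM and *Irf7* at 44.3 and 58.9 CPM in the mesenchymal pools. *Ifitm3* stood at 515 and 838 CPM there (0.49, adjusted p = 0.47). 3 members were called without the male and 1 without the female mesenchymal pool, and 1 when sums were made per plate.

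Among the authors' mesenchymal community clusters, the hepatic stellate cell cluster m7c was compared with the others because interferon-stimulated genes are listed in a stellate cell signature that the study used. The study had named m7c by its high level of that same signature, so higher levels of listed genes there are in part how the cluster was chosen. edgeR put *Zbp1*, *Oas1g* and *Oasl1* past the threshold, where 2.89% of 21329 genes were higher and 0.202% lower, but m7c was a single male sum of 68 cells without a replicate, so the values are a description and no p is given. The number past the threshold was 1 with the pool as a block and 6 with sums of at least 3 cells. *Zbp1* reads came from 9 of these cells (23.4 CPM), *Oas1g* reads from 10 (27.3 CPM) and *Oasl1* reads from 4 (26.2 CPM), and other clusters had no read of some of these genes, so no fold is given. *Oasl1* was higher in a sum of another cluster (74.8 CPM in m6c, 3 of 21 cells). DESeq2 called none of the 3, and none was called without the female mesenchymal pool. The stellate markers *Reln*, *Lrat* and *Hgf* summed to 6202 CPM in m7c and the Kupffer markers to 3.53 CPM.

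Parenchymal cells, that is hepatocytes and cholangiocytes, had 7 members lower and none higher, where 4.05% of genes were lower and 8.37% higher. The female pool held 37 cholangiocytes and 2 hepatocytes, and the male pool 157 and 201. The pools thus differed in make-up, and the comparison does not separate the cell types. *Mx1* (log2 fold change -5.09 ± 1.05), *Ifit3b* (-3.25 ± 0.63), *Ifit3* (-2.29 ± 0.51), *Ifit2* (-1.92 ± 0.46), *Xaf1* (-1.92 ± 0.47), *Ifitm3* (-1.45 ± 0.37) and *Bst2* (-1.43 ± 0.34) had adjusted p-values from 0.0133 to 0.038. DESeq2 called 2 members higher and 12 lower (13.1% and 11.2% of genes). Of the IFIT genes, 3 of 4 were lower, with the pair of near-identical copies counted separately. 2 or 3 members were called when the male immune pool, either endothelial pool, the male mesenchymal pool or either parenchymal pool was left out.

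The 2 parenchymal cell types differed from each other in several members, which was described without a test. *Ifit3* stood at 1.28 CPM and *Ifi44* at 2.04 CPM in hepatocytes, against 10.4 and 88.8 CPM of *Ifi44* in female and male cholangiocytes. *Usp18*, the protease that removes ISG15 and damps receptor signalling, stood at 206 and 107 CPM in cholangiocytes, above Kupffer (90.7 and 15.8 CPM) and endothelial cells (64.6 and 51.2 CPM). It stood at 142 CPM in male myeloid cells and 103 CPM in male B cells. *Irf9* stood at 328 and 218 CPM in cholangiocytes, at 195 and 126 CPM in Kupffer cells and at 241 CPM in male B cells. *Zbp1* stood at 46.5 and 40.5 CPM in cholangiocytes. The 5 male hepatocyte community clusters had mean scores from 0.0910 to 0.16.

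Female and male pools were compared over the 4 classes together. No member was called by edgeR, where 0.00832% of genes were higher and 0.0125% lower, no member had an unadjusted p under 0.05, and DESeq2 called none. The fit asks for a difference shared by the classes and does not test the Kupffer cells on their own, for which each sex had 1 pool.

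The pathway above the members was read from lists of named genes. Interferon ligands were rare: 9 of 21 listed ligands were detected, in 40 of 3491 cells and with 629 counts in all, of which *Ifng* had 340 in 7 cells and *Ifnb1* 11 in 2 cells. 3 ligands passed the filter on low counts, and 318 of the *Ifng* counts came from the male myeloid cells, so no test of a ligand is given. Kupffer cells contributed 6 of the 40 cells, endothelial cells 10 and mesenchymal cells 13. Cells with a ligand read had a mean score of 0.301 and cells without 0.295. Of 6 receptor genes, 4 were higher in immune cells, where 7.92% of all tested genes were (*Ifngr1* 1.70, *Il10rb* 1.64, *Ifnar2* 1.44 and *Ifngr2* 1.40, as log2 fold changes), and *Ifngr1* was higher in Kupffer than in endothelial cells (2.29). *Ifnlr1*, the receptor chain for type III interferon, was higher in parenchymal cells, where *Ifnar2* (-1.36) and *Ifngr2* (-1.80) were lower. Its reads came from cholangiocytes (75.0 CPM in the female and 5.87 CPM in the male pool), with 0.0279 CPM in hepatocytes and 0.137 CPM in female Kupffer cells.

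Among the signal transducers, *Irf5* (4.97) and *Irf8* (3.40) were higher in Kupffer than in endothelial cells, and *Jak1* was higher in endothelial cells than in the mean of the other classes (2.10). Of 9 negative regulators, *Samhd1*, *Ptpn6* and *Trex1* were higher and *Socs3* was lower in Kupffer cells (-3.83), where 3.47% of all tested genes were higher and 3.71% lower, with the same 4 called in the same directions in the immune class (7.92% and 5.25%). The 13 listed symbols for nucleic acid sensing held *Cgas* and *Sting1* under an older name as well, and 11 were found. Of these, *Tlr8* (8.42), *Ikbke* (5.74) and *Tlr7* were higher in Kupffer cells (3.47% of all tested genes). These receptors and kinases detect nucleic acid in endosomes or pass on the signal that leads to interferon.

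Of 14 genes known as targets of interferon-γ, *Cxcl11* (5.73), *Cxcl9* (3.17), *Cxcl10* (3.15) and *Gbp4* (3.02) were the 4 that were higher in endothelial cells than in the mean of the other classes, where 5.33% of all tested genes were, and none was called between Kupffer and endothelial cells. *Cxcl10*, a chemokine for T cells, stood at 67.6 and 308 CPM in female and male endothelial cells, and *Gbp4*, a guanylate-binding protein, at 241 and 166 CPM. 2 of the 14 were higher in immune cells (7.92% of all tested genes) and 4 were lower in parenchymal cells (4.05%). Of 9 genes of MHC class I presentation, *Psmb10*, *Psmb9*, *Tap1* and *Psmb8* were higher in immune cells (7.92% of all tested genes), and none was called between Kupffer and endothelial cells.

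Single cells with the highest scores were not limited to Kupffer cells. The top 1% (35 cells, scores from 1.055 to 1.504) came from 9 plates and comprised 24 female and 1 male Kupffer cells, 6 endothelial cells, 2 myeloid cells, 1 B cell and 1 cholangiocyte. The 24 cells were 6.09% of the female Kupffer cells. The median cell of the top 1% had 29 of the 34 members detected and 5540 detected genes, against 4141 detected genes in the median of the other 3456 cells.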

How the data were processed

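Cells were sorted into plates, converted to cDNA with Smart-seq2 and sequenced. The authors deposited raw read counts per gene and cell, and their submitters' processing notes name bcl2fastq, Bowtie, Bowtie2, featureCounts from Subread, Seurat and the mouse build GRCm38 (mm10), with no versions. Smart-seq2 does not mark strand, so overlapping genes share reads, and the near-identical pairs *Ifit3* and *Ifit3b* and *Oas1a* and *Oas1g* are uncertain as separate genes. ERCC spike-ins (92 rows) were left out of all totals. Classes, clusters and plates were taken from the deposited metadata, and no cell was removed. Doublets were not called again.

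For each pool, the raw counts of all cells of a class, population or cluster were added up (at least 5 cells a sum). Sums were tested with the edgeR quasi-likelihood test (edgeR 4.0.16, R 4.3.3, TMM scaling, filterByExpr, Benjamini-Hochberg adjustment over all genes tested), and all 34 members passed the filter in each class and population fit. DESeq2 1.42.0 was an alternative. A gene was called at an adjusted p under 0.05 and an absolute log2 fold change of at least 1. The procedure was tested on simulated data. Scores and levels are descriptions without a test, computed in Python 3.11.15 with pandas 2.3.3, numpy 2.4.6 and scipy 1.17.1. For thinned values each cell was reduced to 50000 counts, leaving out 13 shallower cells. Exon lengths came from the GENCODE mouse annotation.

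All members could be named with their levels. In each comparison every called member was named with up to 5 uncalled ones of largest fold change, and of the other gene lists every called gene, or up to 4 in lists of more than 12 genes. The members and lists were chosen with earlier results of these data known. Pools of different classes shared 6 to 13 plates, while the labels name no shared animal, and the female minus male differences of their genes correlated at 0.0964 to 0.165 between the 6 pairs of classes. Alternatives were another test, no filter on low counts, thinning, sums per plate, a pool block, other cluster groupings and leaving out each pool. The pool block was the sex of the pool. 1 gene of the signal transducer list is not reported here.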

Additional observations from a re-analysis of the deposited data

Results flagged for a closer look

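1 of 23 groups of 4 to 10 plates held a plate far from the others, where chance gives about 1 in 20. *Oas1g* in endothelial cells reached 103.0 CPM on 1 of the 4 female plates, the one with 5 endothelial and 297 Kupffer cells. The other 3 plates ran from 3.717 to 19.96 CPM. *Oas1g* is near-identical to *Oas1a*, and the part of the Kupffer cells of that plate in the value was not tested.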

How the results depend on the processing

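The 47 results of members past the threshold gave 574 values under the alternatives, of which 406 passed again, 168 did not and 0 turned direction. The 47 include the 3 of m7c, a single sum without a replicate, which are descriptions and not calls. Counts of called members moved as well, and the cause was not tested. Fits without a pool rest on 1 sum in a class and are given without the share of all genes called. Their counts are descriptions. With DESeq2 the counts were 7 for endothelial cells (4 in the report), 12 for mesenchymal cells (6, while genes called lower went from 2.33% to 6.41%), 14 for parenchymal cells (7, from 4.05% to 11.2%), 1 for sinusoidal clusters (0) and 0 for stellate cluster m7c (3). The median log2 fold change of all genes went from 0.09 to -0.11 for immune, from 0.04 to -0.23 for endothelial and from -0.27 to 0.24 for parenchymal cells with DESeq2, while that of the members moved from 1.53 to 1.51, from 0.32 to 0.24 and from -0.96 to -0.87. Without a filter on low counts the counts of members were 7 for endothelial cells, 1 for sinusoidal clusters and 1 for the central vein cluster. Thinned cells gave 2 for endothelial cells, sums per plate 1 for mesenchymal cells, cluster e7 moved to the other clusters 1 for sinusoidal clusters, and sums of at least 3 cells 6 for m7c. Leaving out single pools gave 8 to 19 for immune, 0 to 3 for endothelial, 1 to 8 for mesenchymal, 2 to 6 for parenchymal and 3 to 8 for Kupffer cells. For m7c it gave 0 without the female pool and could not be fitted without the male one. The labels pair no pools by animal, though classes shared plates, and with the pool as a replicate block the counts were 19 for immune, 2 for endothelial, 7 for mesenchymal, 7 for parenchymal, 8 for Kupffer cells and 1 for m7c. Without *Ifitm3* and *Bst2* the mean of the 2 pool scores fell from 0.314 to 0.229 in endothelial cells and from 0.197 to 0.136 in mesenchymal cells. Each class has 2 pools and the female parenchymal pool has 39 cells, so small differences could not be detected.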
